A study of Mus musculus with 10 samples.

Results

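The Ensembl and Rfam classes hold the sperm small RNA reads that were annotated, but not as microRNAs, tRNA fragments, rRNA fragments, Y RNA or piRNAs. A further 4.82–7.37% of the clean reads of a library had no annotation. They were chosen as every class whose name starts with Ensembl or Rfam in the read tables, with reads that matched the mouse genome and reads that did not added together. This gave 30 of the 1470 features that do not overlap each other, 18 from Ensembl and 12 from Rfam. Each class is 1 total per library, and the tables hold no gene names and no read sequences for it, so the genes and positions behind a class total were not measured. Class names are used as the tables give them, and what Rfam labels such as DNA, mRNA or gene_region contain is not explained in the sources used here.

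Small RNA was sequenced from mature sperm of C57BL/6J founder males (F0), taken from the tail of the epididymis and the vas deferens. The CD-F0 group (n = 5) was fed a control diet with 10% of kcal as fat and the HFD-F0 group (n = 5) a high-fat diet with 42% of kcal as fat, both from 4 weeks of age and both for 10 weeks. RNA of 18–30 nt was cut from a gel, so each read is a short RNA or a fragment of a longer one. Whether a sample is 1 mouse or a pool is not stated, and the p-values therefore measure only the spread between these samples.

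Mature sperm are nearly silent in transcription, and their RNA is a mixture of what the testis left behind and what the cells received in the epididymis. snRNAs form the core of the spliceosome, snoRNAs guide chemical modification of rRNA, scaRNAs guide that of snRNAs, and mitochondrial rRNAs build the ribosome inside mitochondria. Long non-coding classes are named by position, with lincRNA genes between coding genes, antisense genes on the opposite strand of a gene, and sense_intronic genes inside introns.

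The libraries held 29558751 to 32178088 clean reads, and each level below is given as reads per 1000000 clean reads (RPM). At this depth the half-width of the Wilson 95% interval of a class with a mean of at least 10 RPM was at most 13.6% of its level, which covers counting error only. The miRNAs miR-34b, miR-34c and miR-449a, known from spermatogenic cells, were present in every library at 1984–3641, 1851–2898 and 3179–8934 RPM. The rest of that list, miR-449b and miR-449c, was far lower, at 1.18–3.14 and 0.823–3.21 RPM. The summed spermatogenic list spanned 10478–12648 RPM in CD-F0 sperm and 7275–15064 RPM in HFD-F0 sperm. Markers of other cells were also present in every library, none of them at 0. The summed epithelial list (6 hairpins) spanned 3969–6756 RPM in CD-F0 sperm and 5520–9463 RPM in HFD-F0 sperm, the smooth muscle list (7 hairpins) 21353–29448 and 15877–36527 RPM, and the blood and immune list (8 hairpins) 3705–5544 and 3255–6107 RPM. These summed ranges overlapped between the groups. Of the 26 single markers 1 did not overlap, beside 3.93% of all 814 features tested below. It was miR-223 of the blood and immune list, at 342–377 RPM in CD-F0 and 449–584 RPM in HFD-F0 sperm. miR-145a of the smooth muscle list overlapped, at 359–811 and 787–2636 RPM. Members of these lists did not all move alike. In CD-F0 and HFD-F0 sperm the means were 151 and 149 RPM for miR-1a-1 of the smooth muscle list. They were 1122 and 964 RPM for miR-451a of the blood and immune list. The part of such cells in the classes below was not tested. Among the libraries, CD-F0 replicate 1 had the lowest share of genome-matched reads, 64.9% against 75.2% in the highest library, and HFD-F0 replicate 2 had the highest levels of Rfam DNA, mRNA and rRNA.

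The Ensembl and Rfam classes made up 3.94% ± 0.400 (SD, n = 5) of the clean reads in CD-F0 sperm and 4.11% ± 0.281 (SD, n = 5) in HFD-F0 sperm, and the gap between the means was below the SD of either group. The lowest share was 3.28%, in CD-F0 replicate 1, and the highest 4.55%, in HFD-F0 replicate 2. Without CD-F0 replicate 1 the log2 ratio of the group means fell from 0.06 to 0.00. Ensembl classes held 67.9% ± 6.77 (SD, n = 5) of these reads in CD-F0 sperm and 67.8% ± 4.74 (SD, n = 5) in HFD-F0 sperm. A handful of classes dominated, since the 5 with the highest mean level took 76.2% ± 1.76 of the reads in CD-F0 sperm and 77.6% ± 0.754 in HFD-F0 sperm (SD, n = 5).

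**Figure D1:**
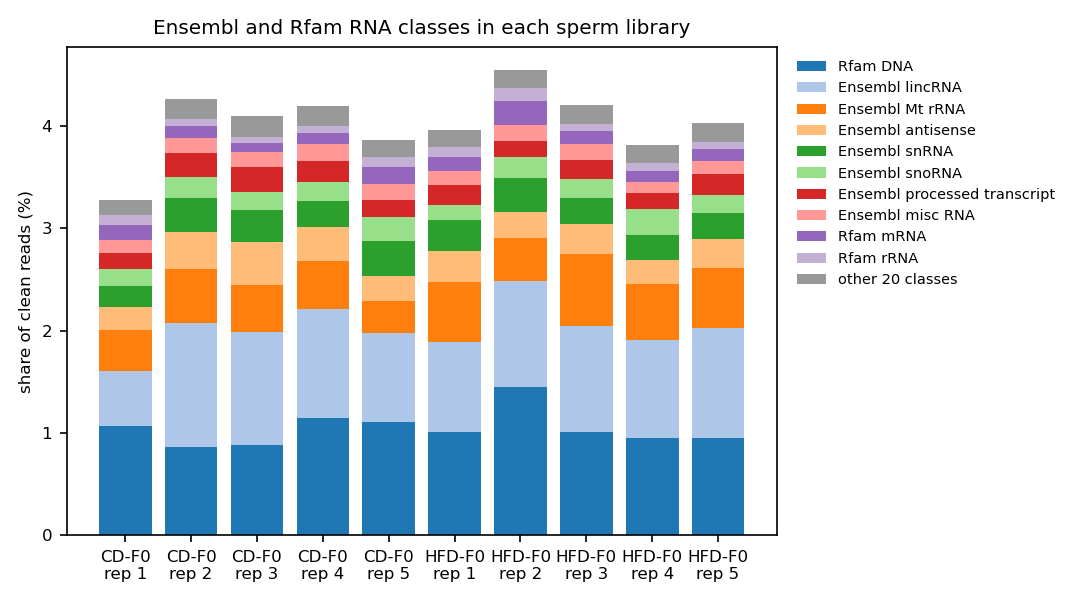
Share of clean reads (%, vertical axis) taken by each Ensembl and Rfam class in the 5 CD-F0 and 5 HFD-F0 libraries, as stacked bars with the 10 most abundant classes coloured and the other 20 in grey. The bars end between 3.28% (CD-F0 replicate 1) and 4.55% (HFD-F0 replicate 2), and Rfam DNA, lincRNA and Mt_rRNA form the lower part of each bar.

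Rfam DNA was the most abundant class with 26.0% of the Ensembl and Rfam reads on average over the 10 libraries, and lincRNA followed with 24.1%. Mt_rRNA took 12.5%, antisense 7.36%, snRNA 6.98%, snoRNA 4.90% and processed_transcript, the Ensembl name for non-coding transcripts that fit no narrower class, 4.72%. misc_RNA, an Ensembl class for structured RNAs such as 7SK and the signal recognition particle RNA, took 3.55%. Of the 30 classes, 20 had a mean of at least 10 RPM, 14 of them from Ensembl and 6 from Rfam. Reads were found in all 10 libraries for 25 classes and in at least 1 library for 28. Rfam antisense and Rfam pseudogene were at 0 in every library, which allows a level of up to 0.0932–0.101 RPM (3 counts in 1 library).

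Grouped by the words in their names, 9 long non-coding classes together took 39.2% ± 6.92 of the Ensembl and Rfam reads in CD-F0 sperm and 37.6% ± 2.66 in HFD-F0 sperm (SD, n = 5). The mitochondrial classes, Ensembl Mt_rRNA and Rfam mt_DNA, took 11.4% ± 1.65 and 14.3% ± 2.76 (SD, n = 5). The snoRNA classes, scaRNA included, took 5.11% ± 0.789 and 4.84% ± 1.05, and the snRNA classes 7.29% ± 1.05 and 6.67% ± 0.695 (SD, n = 5). The only class with a coding name, Rfam mRNA, took 3.24% ± 1.06 and 3.48% ± 0.949 (SD, n = 5). What that label holds is not explained, and on average 20.1% and 19.5% of its reads in CD-F0 and HFD-F0 sperm matched the mouse genome. No Ensembl protein-coding class is in the tables used here, so the share of mouse coding RNA could not be given.

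Reads per class say little about reads per gene, because the classes differ in size. The levels of the 18 Ensembl classes were therefore divided by the merged exon length of the genes that GENCODE M21 (GRCm38) puts in the class of the same name. Mt_rRNA, with 2 genes and 2.54 kb, had by far the most reads per length, 1711 ± 303 RPM per kb in CD-F0 sperm and 2245 ± 395 RPM per kb in HFD-F0 sperm (SD, n = 5). Its genes are mt-Rnr1 (12S rRNA) at positions 70–1024 and mt-Rnr2 (16S rRNA) at positions 1094–2675 of the plus strand of the mitochondrial chromosome. Some classes of short structured RNAs followed, with means over the 10 libraries of 17.8 RPM per kb for snRNA (1385 genes), 11.1 for snoRNA (1507 genes), 10.8 for misc_RNA (562 genes) and 8.96 for scRNA. Other classes of short RNAs were lower, at 3.51 RPM per kb for scaRNA, 2.69 for Ensembl miRNA, 1.66 for ribozyme, 0.756 for sRNA and 0.506 for Ensembl rRNA. Reads of the miRNA and rRNA sets, on average 17.8% and 27.6% of the clean reads over the 10 libraries, are not in these classes. The values of Ensembl miRNA, Ensembl rRNA and Mt_rRNA per kb are thus not those of all reads of such genes. lincRNA, second by reads, spread them over 5854 genes and 8735 kb, which gave 1.12 RPM per kb. The other large long non-coding classes were alike on this scale, at 1.16 RPM per kb for sense_intronic, 0.916 for processed_transcript, 0.871 for bidirectional_promoter_lncRNA and 0.684 for antisense. The Ensembl release behind the deposited classes is not given in the sources used here, so these lengths are those of GENCODE M21, and the scale was chosen after levels had been seen.

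**Figure D2:**
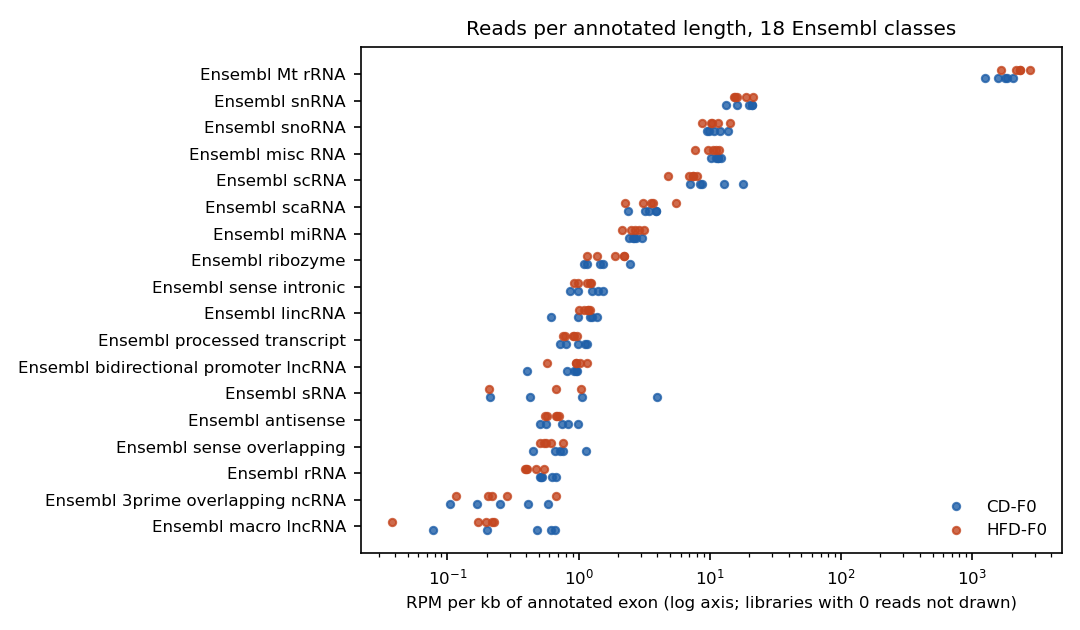
Reads per annotated length (RPM per kb of merged exon, log axis) of the 18 Ensembl classes, 1 point a library, CD-F0 in blue and HFD-F0 in orange; libraries with 0 reads are not drawn. Mt_rRNA lies between 1264 and 2771 RPM per kb in the 10 libraries, and no library of another class exceeds 21.2 RPM per kb.

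The Ensembl and Rfam classes differed in how many of their reads matched the mouse genome. Over the Ensembl classes together 99.8% of the reads matched in both groups. Over the Rfam classes 33.7% ± 6.79 (SD, n = 5) matched in CD-F0 sperm and 33.8% ± 7.55 (SD, n = 5) in HFD-F0 sperm, from 21.6% to 43.4% in single libraries. All other annotated RNA lay between, at 72.7% ± 4.08 and 75.9% ± 0.779 (SD, n = 5).

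Within Rfam, the matched share was 36.8% ± 7.17 in CD-F0 sperm and 37.3% ± 8.25 in HFD-F0 sperm for DNA (SD, n = 5). It was 20.1% ± 5.21 and 19.5% ± 5.42 for mRNA, and 19.2% ± 4.52 and 18.6% ± 4.39 for rRNA (SD, n = 5). The lowest of the abundant classes was Rfam other, with 10.7% ± 4.63 and 10.0% ± 3.51 (SD, n = 5). For each of the 6 Rfam classes with a mean of at least 10 RPM the groups overlapped, and the two-sided exact permutation test gave p from 0.270 (mt_DNA) to 0.897 (DNA). Most reads in these 6 Rfam classes, the largest class of the whole set included, thus had no match in the mouse genome with the authors' settings, and their origin was not analysed here.

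The unmatched part moved more between libraries than the matched part for Rfam DNA. Its genome-matched reads were at 3512, 3415, 4152, 4103 and 3145 RPM in the CD-F0 libraries and at 3531, 3510, 4015, 4331 and 3956 RPM in the HFD-F0 libraries, so that the highest was 1.38 times the lowest. Its unmatched reads were at 7129, 5186, 4623, 7393 and 7936 RPM in the CD-F0 libraries and at 6530, 10956, 6059, 5121 and 5564 RPM in the HFD-F0 libraries, with a highest value 2.37 times the lowest. The high total of HFD-F0 replicate 2 came with its unmatched reads, whereas its matched reads lay inside the range of the other libraries. Rfam mRNA behaved alike, with 183–330 RPM of matched and 662–2065 RPM of unmatched reads over the 10 libraries, and Rfam rRNA had 109–196 RPM and 443–1194 RPM. For mt_DNA the order was the opposite, with a highest matched level 4.17 times the lowest and a highest unmatched level 1.83 times the lowest. Its lowest matched level, 9.90 RPM, was that of CD-F0 replicate 5. Rfam other_RNA also had the opposite order, at 2.96 times for matched and 2.47 times for unmatched reads. This split was examined after the levels had been seen.

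**Figure D3:**
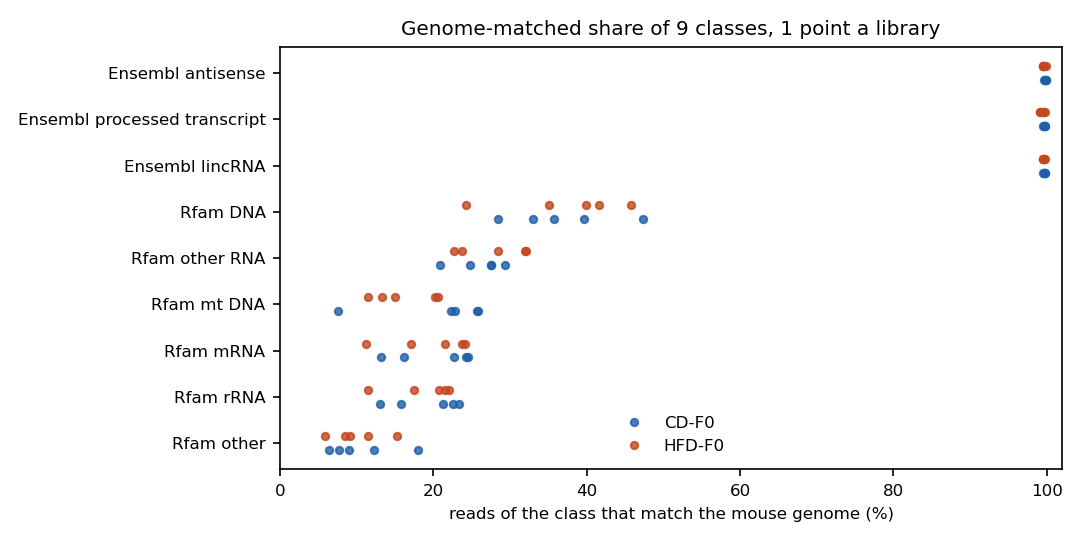
Share of the reads of a class that match the mouse genome (%, horizontal axis) for 3 Ensembl and 6 Rfam classes, 1 point a library, CD-F0 in blue and HFD-F0 in orange. The Ensembl classes lie at 99.1% or above in every library, whereas the Rfam classes shown lie between 5.90% and 47.3%.

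Among the 3 abundant Ensembl classes with unmatched reads in every library, antisense had a matched share of 99.81% ± 0.0930 in CD-F0 sperm and 99.62% ± 0.143 in HFD-F0 sperm (SD, n = 5), a difference of 0.19 percentage points with p = 0.0476 in the two-sided exact permutation test. It was 1 of 9 shares tested, without adjustment. The groups overlapped, and p rose above 0.05 when any 1 library other than CD-F0 replicate 5 or HFD-F0 replicate 1 was left out. The corresponding p was 0.238 for lincRNA and 0.0873 for processed_transcript in the same exact permutation test. Reads of snRNA, snoRNA, misc_RNA, Ensembl miRNA and Mt_rRNA all matched the genome in every library.

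Of the Ensembl and Rfam classes, Rfam other_RNA, Ensembl rRNA, scRNA and macro_lncRNA were lower in HFD-F0 than in CD-F0 sperm at an unadjusted p at or below 0.05, and no class was higher at that threshold. None of these differences remained after adjustment for all features, and a change in the number of cells that carry an RNA cannot be told apart here from a change in its amount per cell. The test was 1 edgeR fit over all 814 features that passed the filter on low counts, 25 of the 30 classes among them. With the study's thresholds, an unadjusted p of at most 0.05 and a log2 fold change of at least 1 in either direction, the call was made for 3.69% of all features and for 1 of the 25 classes, macro_lncRNA. It was lower in HFD-F0 sperm, a call that 1.6% of all features had. By the p threshold alone 10.2% of all features and 4 of the 25 classes were called, and all 4 were lower in HFD-F0 sperm, against 4.05% of all features that were called lower. Adjusted over all features by Benjamini-Hochberg, the quasi-likelihood test of edgeR left 0 classes under 0.05 (0.123% of all features were). DESeq2 also left 0 classes, and 4 of the 25 had an unadjusted p of at most 0.05, as had 12% of all features. The groups did not overlap in RPM for 3.93% of all features and for 0 of the 25 classes. The median log2 fold change was -0.10 over the 25 classes and -0.01 over all features, and 19 of the 25 classes had a fold change below 0, as had 51% of all features. With the clean reads as library size in place of TMM, the median of all features moved to 0.09 and 15 of the 25 classes were below 0, as were 38.8% of all features. Without CD-F0 replicate 1 the p threshold alone called 5 classes and both thresholds called 1 (12.2% and 4.48% of all features). Without HFD-F0 replicate 2 they called 4 and 0 (8.9% and 3.73% of all features).

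**Figure D4:**
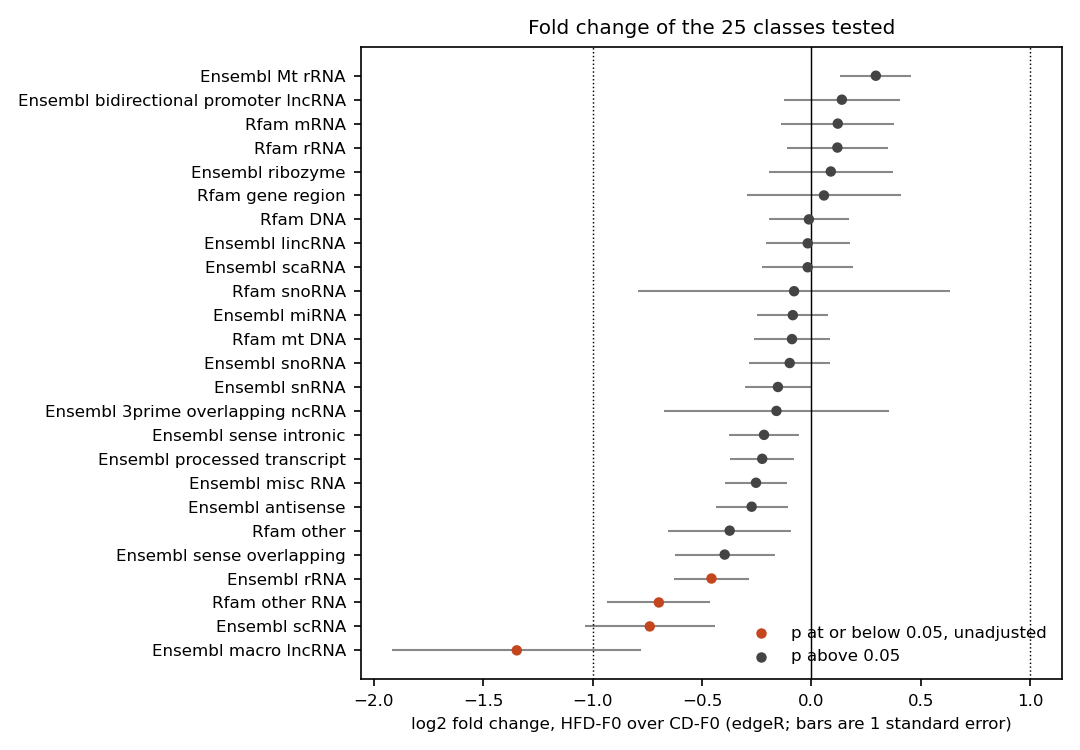
Log2 fold change of HFD-F0 over CD-F0 (horizontal axis, edgeR) for the 25 classes tested, with bars of 1 standard error, unadjusted p at or below 0.05 in orange and dotted lines at the fold change threshold. Macro_lncRNA at -1.35 is the one point past a dotted line, and Mt_rRNA at 0.29 is the highest point.

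Rfam other_RNA, grouped with the small structured and other classes, was at 165, 105, 116, 167 and 80.3 RPM in the CD-F0 libraries and at 95.9, 69.9, 74.0, 88.0 and 95.6 RPM in the HFD-F0 libraries. All 5 HFD-F0 libraries lay below the 4 highest CD-F0 libraries, and only CD-F0 replicate 5 lay among them. The log2 fold change was -0.70 with a standard error of 0.24 (adjusted p = 0.250 by the quasi-likelihood test of edgeR, Benjamini-Hochberg). The difference in RPM had p = 0.0397 in the two-sided exact permutation test. In edgeR the unadjusted p stayed at or below 0.05 without any 1 of the 10 libraries, with log2 fold changes of -0.84 to -0.55. The exact permutation p rose to between 0.0635 and 0.103 without CD-F0 replicate 1 or 4 or any 1 HFD-F0 library, and over the genome-matched reads alone, where the class had 33.5 ± 12.3 and 23.6 ± 5.63 RPM (SD, n = 5), it was 0.151.

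Ensembl rRNA, the nuclear ribosomal RNA genes and copies annotated by Ensembl (354 genes in GENCODE M21), was at 21.3, 21.9, 28.4, 22.5 and 26.4 RPM in the CD-F0 libraries and at 17.1, 16.4, 22.9, 16.8 and 20.2 RPM in the HFD-F0 libraries. In HFD-F0 sperm 4 libraries lay below the lowest CD-F0 library, and replicate 3 lay within the CD-F0 range. Its log2 fold change was -0.46 with a standard error of 0.17 (adjusted p = 0.361 in edgeR), and the exact permutation test on RPM gave p = 0.0317. Without HFD-F0 replicate 2 the edgeR p was 0.0515, and with the clean reads as library size it was 0.0717. The exact permutation p rose above 0.05, to at most 0.0714, without CD-F0 replicate 3 or 5 or HFD-F0 replicate 1, 2, 4 or 5. Rfam rRNA, a more abundant class, did not pass the test, with 778 ± 176 RPM in CD-F0 sperm and 904 ± 258 RPM in HFD-F0 sperm (SD, n = 5) and an adjusted p of 0.914 in edgeR.

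Ensembl scRNA, the small cytoplasmic RNA class, holds 1 gene in GENCODE M21. That gene is Bc1-ps1, on the minus strand of chromosome 7 at 93660238–93660555 (GRCm38). The class was at 2.69, 2.75, 5.71, 4.07 and 2.27 RPM in the CD-F0 libraries and at 1.53, 2.37, 2.36, 2.54 and 2.20 RPM in the HFD-F0 libraries, which rests on 49–177 reads a library. Of the CD-F0 libraries 4 lay above the highest HFD-F0 library and replicate 5 lay among the HFD-F0 values. On the log2 scale the fold change was -0.74 with a standard error of 0.30 (adjusted p = 0.410 in edgeR), with p = 0.0317 in the exact permutation test on RPM. It turned on single libraries, since the edgeR p was 0.0923 without CD-F0 replicate 3 and 0.0585 without CD-F0 replicate 4, and the exact permutation p was 0.0556 without CD-F0 replicate 3 and between 0.0952 and 0.159 without any 1 of the HFD-F0 libraries.

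Macro_lncRNA, a small long non-coding class, holds 2 genes in GENCODE M21, Gm15821 on the minus strand of chromosome 17 at 34211312–34214459 and Gm35066 on the plus strand of chromosome 3 at 144972124–144982560 (GRCm38). It was at 0.657, 1.58, 2.03, 2.16 and 0.256 RPM in the CD-F0 libraries and at 0.719, 0.562, 0.653, 0.125 and 0.744 RPM in the HFD-F0 libraries, which amounts to 4–68 reads. The 3 highest libraries were CD-F0 replicates 2, 3 and 4, and the other 2 CD-F0 libraries lay within the HFD-F0 range. The fitted log2 fold change was -1.35 with a standard error of 0.57 (adjusted p = 0.430 in edgeR), and the exact permutation test on RPM gave p = 0.103. The call by the study's thresholds was lost without CD-F0 replicate 2, 3 or 4 and without HFD-F0 replicate 2, 3 or 4, with edgeR p-values of 0.0525 to 0.0928.

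No class was called higher by either rule, against 2.09% of all features by the thresholds and 6.14% by the p threshold alone. Mt_rRNA had the highest fold change, with 4031, 5240, 4510, 4722 and 3207 RPM in the CD-F0 libraries and 5875, 4238, 7031, 5464 and 5864 RPM in the HFD-F0 libraries. HFD-F0 replicates 1, 3, 4 and 5 lay above the highest CD-F0 library, and HFD-F0 replicate 2 lay within the CD-F0 range. Its log2 fold change was 0.29 with a standard error of 0.16 (adjusted p = 0.547 in edgeR), whereas the means of 4342 ± 769 and 5694 ± 1002 RPM (SD, n = 5) had p = 0.0476 in the two-sided exact permutation test. It was above 0 in each of the 17 settings of the fit, from 0.19 to 0.39. The permutation p rose above 0.05, to at most 0.0952, when any 1 library other than CD-F0 replicate 2 or HFD-F0 replicate 2 was left out. With the level taken over genome-matched clean reads in place of all clean reads that p was 0.0714, and over miRNA reads 0.254. In edgeR the unadjusted p was 0.0944 with all libraries. It was at or below 0.05 in 2 of the 17 settings, 0.0464 without HFD-F0 replicate 2 and 0.0420 with the clean reads as library size.

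Fragments of the mitochondrial rRNAs are also counted in the rRNA set, as 12S and 16S rRNA, where they reached 8997 ± 1615 RPM in CD-F0 sperm and 10336 ± 961 RPM in HFD-F0 sperm (SD, n = 5). The Ensembl Mt_rRNA reads amounted to 0.487 ± 0.0718 of them in CD-F0 sperm against 0.551 ± 0.0873 in HFD-F0 sperm (SD, n = 5), with 0.400 (CD-F0 replicate 5) and 0.702 (HFD-F0 replicate 3) at the ends. How the reads of these genes were divided between the sets is not stated in the sources used here. Rfam mt_DNA, the other mitochondrial class, was at 141 ± 30.1 RPM in CD-F0 sperm and 141 ± 23.2 RPM in HFD-F0 sperm (SD, n = 5), and its fold change was -0.09 with a standard error of 0.18 on the log2 scale.

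Of the 9 long non-coding classes 8 were tested, 1 of them (macro_lncRNA) was called lower, 0 were called higher, and 7 had a fold change below 0, where over all features 1.6% were called lower, 2.09% were called higher and 51% were below 0. Their median log2 fold change was -0.22 beside -0.01 over all features. lincRNA was at 5384, 12159, 11140, 10643 and 8658 RPM in the CD-F0 libraries and at 8817, 10364, 10378, 9608 and 10700 RPM in the HFD-F0 libraries. CD-F0 replicate 1 was the lowest library and the HFD-F0 values lay inside the CD-F0 range. The log2 fold change was -0.02 (standard error 0.19) and the adjusted p 0.991 in edgeR, and the fold change turned to 0.056 with the clean reads as library size. The coefficient of variation was 27.9% in CD-F0 sperm and 7.63% in HFD-F0 sperm, and a difference in spread was not tested.

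Antisense was at 2217, 3622, 4264, 3239 and 2450 RPM in the CD-F0 libraries and at 3063, 2506, 2992, 2402 and 2928 RPM in the HFD-F0 libraries. CD-F0 replicates 2, 3 and 4 lay above all HFD-F0 libraries and CD-F0 replicate 1 below them. Its log2 fold change was -0.27 with a standard error of 0.16 (adjusted p = 0.584 in edgeR). Processed_transcript, at 1991 ± 400 and 1811 ± 196 RPM, and sense_intronic, at 597 ± 137 and 547 ± 68.2 RPM (SD, n = 5), had log2 fold changes of -0.22 (standard error 0.14) and -0.22 (standard error 0.16). In both, too, 3 CD-F0 libraries lay above and 1 below the HFD-F0 range. Sense_overlapping, for transcripts that hold a coding gene in an intron, was at 36.6 ± 12.4 and 29.3 ± 4.81 RPM (SD, n = 5), and its log2 fold change was -0.40 with a standard error of 0.23 (adjusted p = 0.571 in edgeR). Its unadjusted p in that fit was 0.108 with all libraries, 0.0408 without CD-F0 replicate 1 and 0.0465 without HFD-F0 replicate 4. In the 8 other fits with 1 library left out it was above 0.05, up to 0.325 without CD-F0 replicate 3. Bidirectional_promoter_lncRNA, for transcripts that start at the promoter of a coding gene and run away from it, was the class of this list with a fold change above 0, 0.14 (standard error 0.27) on the log2 scale, at 265 ± 77.6 and 304 ± 71.0 RPM (SD, n = 5).

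Some long non-coding classes kept a narrow ratio to each other across libraries. Antisense reads varied 1.92-fold from the lowest to the highest library, but their ratio to sense_intronic reads varied 1.15-fold, between 4.92 and 5.65, and that to processed_transcript reads 1.21-fold, between 1.45 and 1.76. Against lincRNA the ratio varied 1.70-fold. lincRNA in turn varied 2.26-fold on its own and 1.42-fold as a ratio to piRNA reads, which took 11.2–22.6% of the clean reads. The ratio of antisense to piRNA varied 2.02-fold, more than antisense alone. Whether the counting used the strand of a read is not stated, so reads of an antisense gene and of the gene opposite to it cannot be told apart. These ratios were chosen after the levels had been seen, share the library and its depth, and are given with no test.

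**Figure D5:**
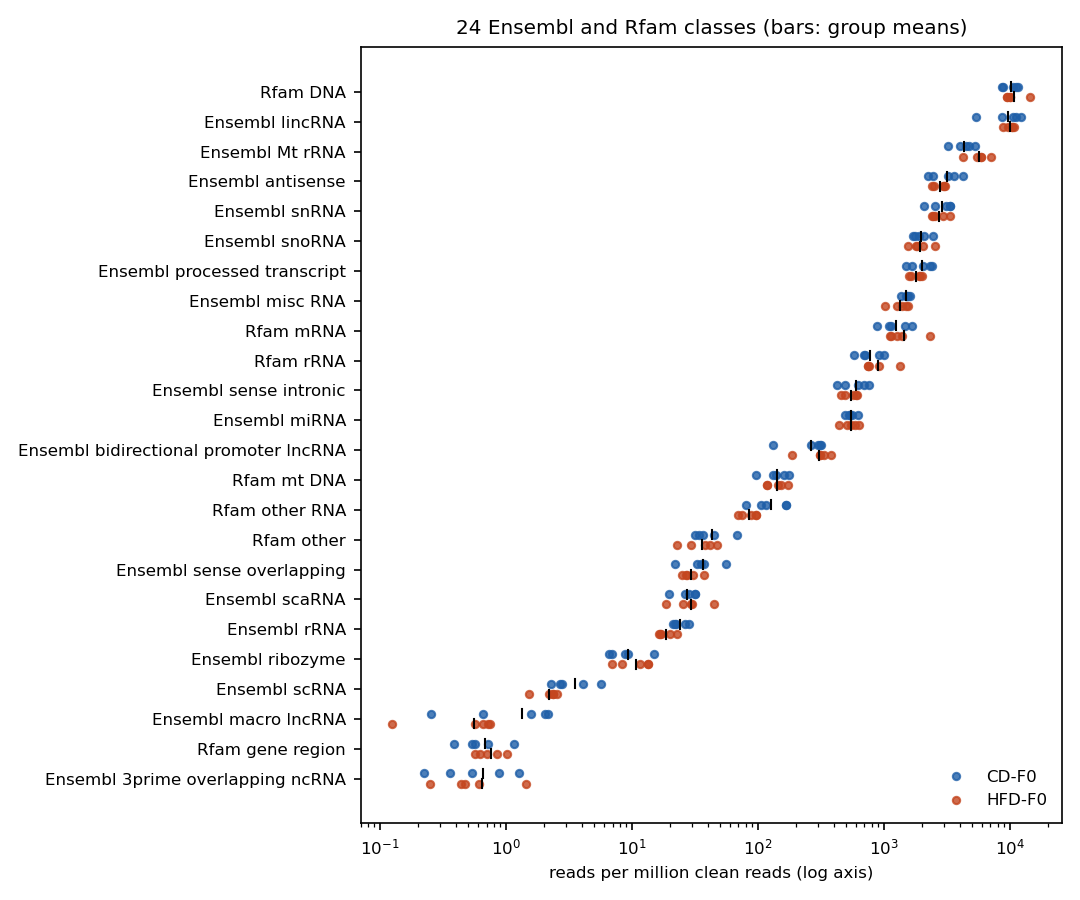
Level of 24 Ensembl and Rfam classes in RPM (log axis), 1 point a library, CD-F0 in blue and HFD-F0 in orange, with a black bar at each group mean. Levels run from 0.125 RPM (macro_lncRNA) to 14465 RPM (Rfam DNA), and the groups overlap for every class.

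The Rfam classes with the highest levels shared 1 outlying library. Rfam DNA was at 10641, 8601, 8776, 11496 and 11080 RPM in the CD-F0 libraries and at 10061, 14465, 10074, 9452 and 9520 RPM in the HFD-F0 libraries. HFD-F0 replicate 2 was the highest of all 10, and the other 4 HFD-F0 libraries lay within the CD-F0 range. The log2 fold change was -0.01 (standard error 0.18) in edgeR, and without HFD-F0 replicate 2 it was -0.18. Rfam mRNA was at 1458, 1103, 878, 1135 and 1665 RPM in the CD-F0 libraries and at 1391, 2324, 1277, 1124 and 1129 RPM in the HFD-F0 libraries, again with HFD-F0 replicate 2 on top and with the other HFD-F0 libraries inside the CD-F0 range. Its log2 fold change of 0.12 (standard error 0.26) turned to -0.16 without that library, and the 0.12 (standard error 0.23) of Rfam rRNA turned to -0.11.

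Rfam mRNA and Rfam rRNA moved together. The mRNA reads varied 2.65-fold between libraries, while their ratio to the rRNA reads stayed between 1.47 and 1.72, a 1.17-fold range. The ratio of Rfam DNA to Rfam mRNA varied 1.63-fold. Rfam other was at 43.1 ± 14.8 RPM in CD-F0 sperm and 35.8 ± 9.65 RPM in HFD-F0 sperm (SD, n = 5), and its log2 fold change was -0.37 with a standard error of 0.28 (adjusted p = 0.675 in edgeR). It did not pass the test.

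Among the RNAs of splicing and RNA modification no class passed the test. snRNA was at 2088–3329 RPM with a median of 3124 in CD-F0 sperm and at 2418–3345 RPM with a median of 2543 in HFD-F0 sperm, and its log2 fold change was -0.15 (standard error 0.15). snoRNA had medians of 1900 and 1823 RPM and a log2 fold change of -0.10 (standard error 0.18). scaRNA was at 19.5–31.8 and 18.5–44.9 RPM, and its log2 fold change was -0.02 (standard error 0.21). For misc_RNA the CD-F0 libraries were at 1357, 1543, 1523, 1621 and 1492 RPM and the HFD-F0 libraries at 1391, 1565, 1489, 1024 and 1279 RPM. HFD-F0 replicates 4 and 5 lay below the CD-F0 range, and the fold change was -0.25 with a standard error of 0.14 (adjusted p = 0.561 in edgeR). Its unadjusted p in edgeR was 0.0992 with all libraries and 0.0350 without HFD-F0 replicate 2. In the 9 other fits with 1 library left out it was above 0.05. The ribozyme class, which in GENCODE M21 includes the RNAs of RNase P (Rpph1) and RNase MRP (Rmrp), was at 9.32 ± 3.31 and 10.7 ± 2.95 RPM (SD, n = 5), and its log2 fold change was 0.09 (standard error 0.28).

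Ensembl miRNA, hairpin reads counted outside the miRNA set proper, was at 547 ± 46.6 RPM in CD-F0 sperm and 545 ± 77.0 RPM in HFD-F0 sperm (SD, n = 5), and its log2 fold change was -0.08 (standard error 0.16). The lowest coefficient of variation in CD-F0 sperm was 6.39%, for misc_RNA, and that in HFD-F0 sperm 7.63%, for lincRNA, among the 20 classes with a mean of at least 10 RPM. Below that mean, gene_region was at 0.675 ± 0.297 and 0.753 ± 0.185 RPM and 3prime_overlapping_ncRNA at 0.654 ± 0.419 and 0.640 ± 0.464 RPM (SD, n = 5), neither past the test. Rfam snoRNA, with 1–38 reads a library, was also tested and not called. Rfam tRNA, Ensembl sRNA and Rfam snRNA held 0–18 reads a library, did not pass the filter and were not tested. Of the 20 classes chosen by their mean level, 3 had p under 0.05 in the exact permutation test on RPM before any adjustment, those of Mt_rRNA, Rfam other_RNA and Ensembl rRNA, where the smallest p that 5 against 5 samples can give is 0.00794. The share of all features that pass this permutation test was not computed. scRNA and macro_lncRNA were named for their result in edgeR, so their permutation p is no separate support.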

How the data were processed

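Per the labels and methods, the authors aligned clean reads with SPORTS and Bowtie, allowing 1 mismatch, to the mouse genome (mm10 in the submitters' processing notes) and to sets of known RNAs in turn, with non-coding RNA sets last. Program versions, database releases and any collapsing of molecular identifiers are not given in the sources used here. The deposited values are estimated counts of reads per class and sub-class for each of 10 samples. Class totals of the Ensembl and Rfam classes were whole numbers, and all features were rounded before testing. The class totals and the unannotated reads together came to within 17.0–21.1 reads of the clean reads.

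Features were tested in one fit with edgeR 4.0.16 (filterByExpr, TMM, quasi-likelihood test, Benjamini-Hochberg adjustment over 814 features) in R 4.3.3. Levels in RPM and genome-matched shares were compared by two-sided exact permutation tests, with scipy 1.17.1. On simulated counts 191 of 193 changed features were recovered, where the raised ones had a median fitted log2 fold change of 2.03. Changes as small as those of the classes here were not simulated, so this recovery does not extend to them. Over the 45 pairs of libraries, the chi-square per degree of freedom was at least 381, so none was a duplicate.

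Classes named with values had a mean of at least 10 RPM, passed the thresholds, or were among the 2 smallest p-values in each direction of the rest. A repeat with DESeq2 1.42.0, other filters and denominators, each library left out and a replicate block is given in the closing section. Members and lists were chosen with earlier results of these data known.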

Additional observations from a re-analysis of the deposited data

Results flagged for a closer look

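In groups of 5 libraries, 68 sets of levels and genome-matched shares were examined for a library far from the others, and 5 had one, where chance gives about 1 in 20. In the HFD-F0 group replicate 2 stood above the others for 3 Rfam classes, with 14465 RPM of DNA (next highest 10074), 2324 RPM of mRNA (next highest 1391) and 1348 RPM of rRNA (next highest 913). In the CD-F0 group bidirectional_promoter_lncRNA was at 131 RPM in replicate 1, below the next lowest library at 265 RPM. The genome-matched share of Rfam mt_DNA was 7.51% in CD-F0 replicate 5, and the next lowest CD-F0 library had 22.3%. With all 10 libraries the difference between the groups in this share was -4.72 percentage points (exact permutation test, p = 0.270). Without CD-F0 replicate 5 it was -8.05 percentage points (exact permutation test, p = 0.0238). That library was picked for its low value in the same data, and leaving it out widens the difference, so the lower p is no separate support. When any 1 of the 9 other libraries was left out, p in the exact permutation test was above 0.05.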

How the results depend on the processing

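The number of classes with an adjusted p under 0.05 was 0 in every setting tried, with edgeR and with DESeq2. An unadjusted p of at most 0.05 was reached by 2 to 5 classes and by 7.24% to 14.8% of all features. The number past the study's thresholds was 0 in place of 1 with at least 10 counts required in every sample, since macro_lncRNA was then not tested, 0 with the replicate block, and 0 to 1 when 1 library was left out. Over the settings 2.61% to 6.34% of all features passed these thresholds. Whether the replicate numbers pair the samples is not stated in the sources used here. Same-numbered samples correlated at 0.336, -0.0873, 0.246, -0.191 and -0.137, and 2 of 5 HFD-F0 samples correlated best with their own number. With so few samples these values cannot decide it. The block left 3 classes at an unadjusted p of at most 0.05 in place of 4, beside 10.1% of all features in place of 10.2%. The log2 ratio of the summed share was 0.06, and it was 0.00 to 0.09 when 1 library was left out. With genome-matched clean reads as the denominator it was -0.01, and with miRNA reads -0.05. Counts under 10 reads limit macro_lncRNA and the rarer classes.

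Directions turned for classes with small differences, and the cause was not tested. With the clean reads as library size, the log2 fold change was 0.083 for Rfam DNA, 0.0065 for Rfam mt_DNA, 0.056 for lincRNA and 0.11 for scaRNA. For lincRNA it was 0.0100 with the replicate block. With genome-matched reads only it was -0.016 for gene_region. The log2 ratio of mean levels over miRNA reads was -0.045 for Rfam DNA, -0.046 for lincRNA, -0.037 for scaRNA and -0.10 for Rfam mt_DNA. For Rfam mt_DNA it was also -0.0064 over annotated reads, -0.059 over genome-matched clean reads and -0.38 with genome-matched reads only. When 1 library was left out, the log2 fold change ran from -0.18 to 0.049 for Rfam DNA, -0.10 to 0.31 for gene_region, -0.16 to 0.23 for Rfam mRNA, -0.11 to 0.23 for Rfam rRNA and -0.62 to 0.19 for 3prime_overlapping_ncRNA. It ran from -0.016 to 0.27 for bidirectional_promoter_lncRNA, -0.15 to 0.040 for lincRNA, -0.038 to 0.38 for ribozyme and -0.17 to 0.094 for scaRNA. The log2 ratio of mean levels ran from -0.050 to 0.13 for Rfam DNA, -0.021 to 0.34 for Rfam mRNA, -0.10 to 0.099 for Rfam mt_DNA and -0.57 to 0.35 for 3prime_overlapping_ncRNA. It ran from -0.095 to 0.16 for lincRNA, -0.069 to 0.064 for Ensembl miRNA, -0.093 to 0.24 for scaRNA and -0.13 to 0.066 for snoRNA. The difference in genome-matched share ran from -1.63 to 3.76 percentage points for Rfam DNA, -2.39 to 1.46 for Rfam mRNA, -1.91 to 1.22 for Rfam other and -2.08 to 1.27 for Rfam rRNA.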
